A study of Mus musculus with 6 samples.

Results

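The genes described here are nuclear genes for the mitochondrial respiratory chain and ATP synthase. The subunits encoded by mitochondrial DNA were not analysed here. They were chosen by symbol alone, as every gene whose symbol starts with Ndufa, Ndufb, Ndufc, Ndufs, Ndufv, Sdha to Sdhd, Uqcr, Cox4 to Cox8 or Atp5, and this found 93 of the 22180 genes tested. Of the 93, 77 encode subunits of complexes I to V, 12 encode assembly factors of complexes I and II, 2 encode relatives that are not counted as subunits here (Ndufa4l2 and Cox7a2l), and 2 are pseudogenes. All cells were mouse embryonic stem cells (ESCs) with both copies of Dgcr8 knocked out, and this loss is shared by both groups. Dgcr8 partners the Drosha nuclease, and without it canonical miRNAs are not made. A control hairpin (shctrl) was present in the cells of 3 samples, and sh-miR-302, described as mimics of miR-302, in those of the other 3. The samples of a group are described as independent, but neither the number of clones, nor the promoter of the hairpin, nor the time of its expression is stated. Values are log2 expression levels from microarrays, so a difference of 1 is 2-fold.

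Complexes I to IV pass electrons from NADH and succinate to oxygen and pump protons across the inner mitochondrial membrane (complex II passes electrons without pumping), and complex V uses the proton gradient to make ATP. Pluripotent cells are known for strong glycolysis, and the balance of glycolysis and respiration differs between naive and primed states. The miRNA of the treated cells belongs to a family that is abundant in pluripotent cells and acts by pairing of its seed, bases 2 to 8, with target transcripts. The mature 3p arms found in the RefSeq entries used (GRCm38.p6, chromosome 3, plus strand) are shown for their seeds, in capitals. These entries held no mature miR-302a-3p, so that form is not shown. The labels do not say which form or forms the construct carries.
mmu-miR-302b-3p: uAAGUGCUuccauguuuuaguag
mmu-miR-302c-3p: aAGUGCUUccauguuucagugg
mmu-miR-302d-3p: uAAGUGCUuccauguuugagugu
They lie at chr3:127545275-127545297 (b), chr3:127545406-127545427 (c) and chr3:127545665-127545687 (d). The b and d forms share the seed AAGUGCU. The c form as listed starts 1 base further in, so its bases 2 to 8 read AGUGCUU.

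The arrays had medians from 5.60 to 5.62 over all rows. All 10 ESC markers checked were measured and none was called different between groups. Their mean level was 10.64 to 10.69 on the control arrays and 10.80, 10.48 and 10.50 on miR-302 replicates 1, 2 and 3, so replicate 1 was above and the other replicates below the control range. Sox2 (log2 change −0.33) and Zfp42 (−0.27) were below every control array on all miR-302 arrays, Tdgf1 (0.15) and Utf1 (0.26) were above, and the groups overlapped for the other 6, Pou5f1 (0.04) among them. Dgcr8 itself was not analysed here. Of 10 trophectoderm markers, 8 were called higher with miR-302, and their mean level was 6.24 to 6.36 on the control arrays and 7.51 to 8.32 on the miR-302 arrays. Of 10 fibroblast markers 2 were called lower, with a mean level of 5.40 to 5.50 and 5.34 to 5.48, and of 10 primitive endoderm markers 4 were called higher and 2 lower, with a mean level of 5.48 to 5.64 and 5.83 to 5.85. The part of these shifts in the results on respiratory chain genes was not tested. In a bulk sample, fewer cells of a type and less RNA per cell cannot be told apart. Replicate 1 of miR-302 was the least like its group, with a mean within-group correlation of 0.990 against 0.993 for replicates 2 and 3, and its trophectoderm mean was the lowest of the group at 7.51.

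With miR-302, 7 of 32 complex I genes and 2 of 4 complex II genes were called lower, each by less than 0.5 on the log2 scale. Another complex II gene, Sdhd, was called higher, by 0.35. No complex V gene passed the test in this fit. Of the 93 genes, 13 were called lower and 4 higher (limma, adjusted p under 0.05), and 76 were not called. Among all genes tested, 9.25% were called lower and 7.18% higher. The mean level of 83 of the 93 genes reached the median over genes, and among the 11090 genes that reached it, here called better-expressed genes, 15.9% were lower and 10.9% higher in the same fit. The 14.0% of the 93 that were called lower is thus near the share among better-expressed genes, and the 4.30% called higher is below both shares. The median log2 change of the 93 was −0.11, beside 0.01 for all genes and −0.03 for better-expressed genes. The mean with miR-302 was lower than in control cells in 62 of the 93 and higher in 30. When the test was run on better-expressed genes only, 23 of the 83 were called lower and 5 higher, beside 22.4% and 16.4% of the genes then tested. The count of 13 lower rose to 21 without miR-302 replicate 1 and was 3 without any 1 of the other arrays, and the count of 4 higher was 4 and 1 or 2. The shares over all genes moved too, to 13.1% lower and 11.2% higher without that replicate, and to 4.70% to 5.48% lower and 3.09% to 3.88% higher without another array. In the fits that left out 1 array, Ndufs8, Ndufa11, Sdhb and Sdhaf1 were called every time. Of the 17 called genes, Uqcr11 was called in none of these fits, Sdhd in 2, and each of the other 11 only without miR-302 replicate 1.

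**Figure D1:**
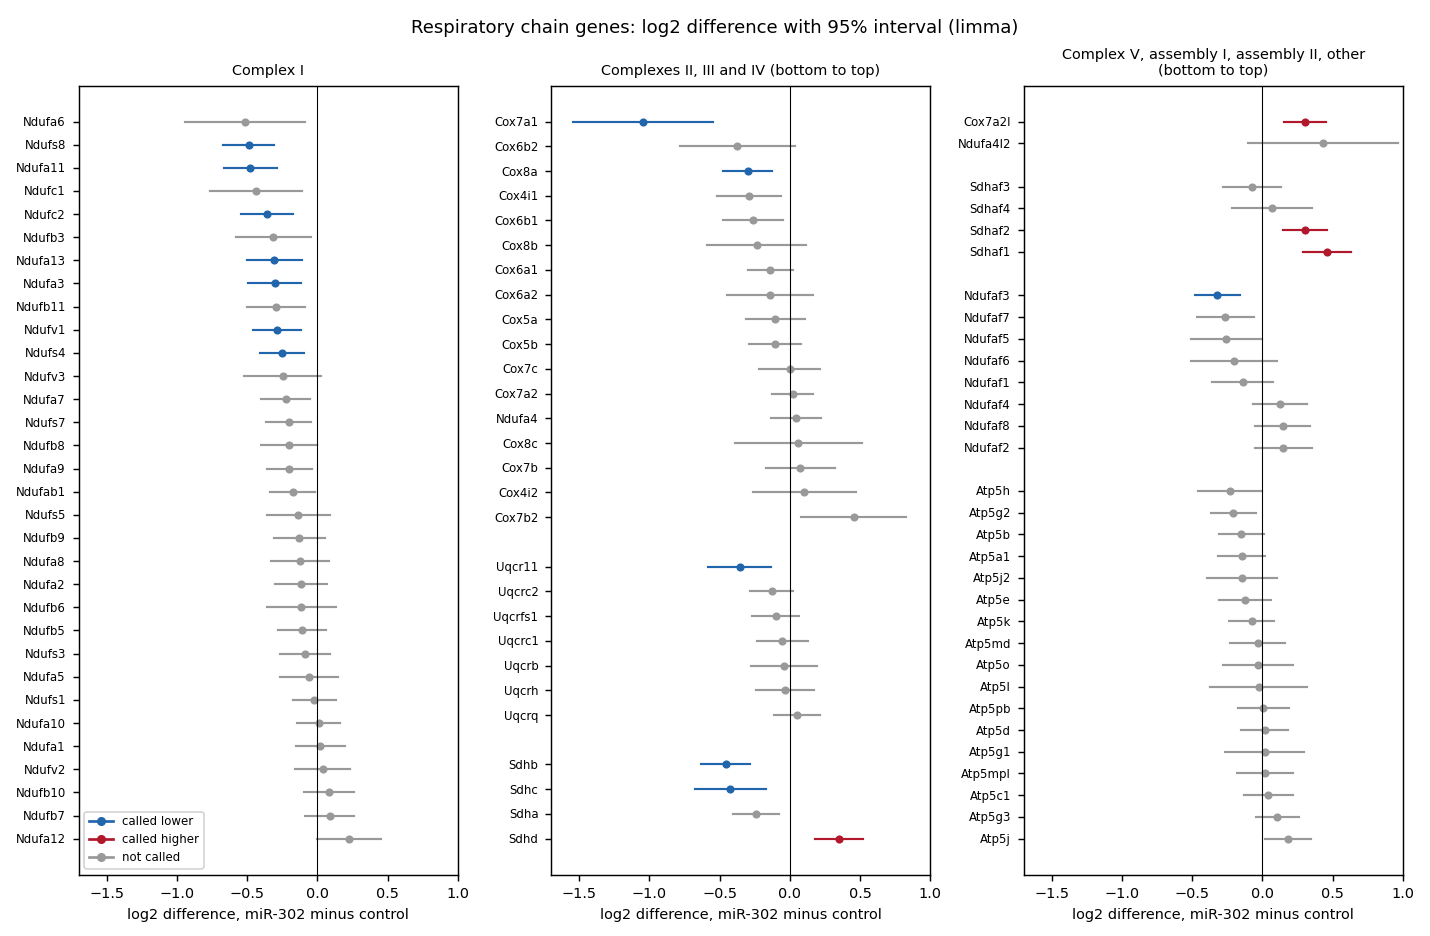
Log2 difference between miR-302 and control means for each gene (points) with its 95% confidence interval from limma (lines), in panels for complex I, complexes II to IV, and complex V with assembly factors and relatives. Genes called lower are blue and genes called higher are red. Most complex I points lie left of 0, complex V has no coloured point, and Cox7a1 has the most negative value at −1.04.

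The 5 complexes differed in how far their median lay from 0. The median log2 change was −0.19 over 32 complex I genes, −0.33 over 4 complex II genes, −0.05 over 7 complex III genes, −0.10 over 17 complex IV genes and −0.03 over 17 complex V genes. On single arrays, the complex I median deviation from the control mean was −0.05 to 0.03 on the control arrays and −0.21 to −0.16 on the miR-302 arrays, without overlap. For complex II it was −0.04 to 0.04 and −0.35 to −0.21. For complex V it was −0.04 to 0.03 and −0.08 to −0.01, and the groups overlapped. The complex IV median was 0.02 on the array of miR-302 replicate 1, inside the control range of −0.05 to 0.06, and −0.16 and −0.12 on the other miR-302 arrays. Of the 77 subunit genes, 27 had all miR-302 arrays below all control arrays. The same held in 30.6% of better-expressed genes and 19% of all genes. These medians are descriptions without a test, since the genes of a complex share the arrays.

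**Figure D2:**
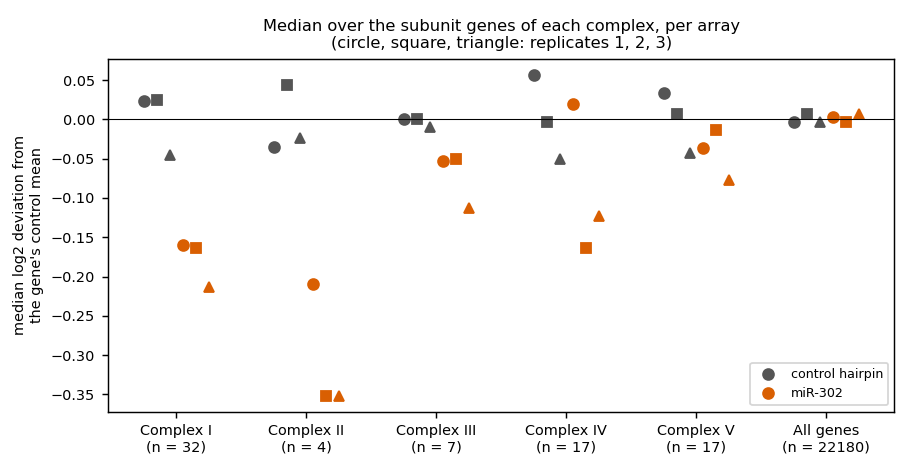
Median over the genes of each complex of the log2 deviation from each gene's control mean, on each of the 6 arrays (grey, control hairpin; orange, miR-302). The miR-302 arrays lie below all control arrays for complexes I, II and III, at −0.21 to −0.16 for complex I, and overlap them for complexes IV and V.

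Complex I takes electrons from NADH in a matrix arm and pumps protons in a membrane arm. Of its 32 genes with a row of their own, 7 were called lower, none higher and 25 not called, and the mean was lower in 26. Without miR-302 replicate 1, 11 were called lower, and without any 1 of the other arrays 2. In 14 of the 32, or 43.8%, every miR-302 array was below every control array, against 30.6% of better-expressed genes and 19% of all genes. Ndufs8, a core subunit that carries iron-sulfur clusters, measured 11.08, 11.04 and 10.91 on the control arrays and 10.50, 10.57 and 10.49 on those of miR-302. The groups did not overlap, and the gene was 1.40-fold lower (log2 change −0.49 ± 0.08 SE, adjusted p = 0.00765 by limma). Ndufv1, the core subunit that binds NADH and flavin, measured 10.93, 11.03 and 10.87 on the control arrays and 10.68, 10.63 and 10.66 on those of miR-302. It fell by 0.29 on the log2 scale (limma, adjusted p = 0.0391). Ndufs4, an accessory subunit of the matrix arm whose loss in mice causes a Leigh-like disease, went from 11.46 ± 0.02 (SD, n = 3) to 11.21 ± 0.05 (log2 change −0.25, adjusted p = 0.0449 by limma). Ndufs1, the largest core subunit, differed little between groups. It averaged 9.98 ± 0.04 in control cells and 9.95 ± 0.02 with miR-302, a log2 change of −0.02 with a 95% interval of −0.18 to 0.13. The core subunit gene Ndufv2 had a log2 change of 0.04 (adjusted p = 0.816) and Ndufs3 one of −0.09 (adjusted p = 0.483), both with overlapping groups. The core gene Ndufs7 was below every control array on all miR-302 arrays, with a log2 change of −0.20 that did not pass the test (adjusted p = 0.0893). Of the 6 core genes measured 2 were called lower, of 8 accessory genes of the matrix arm 1, and of 17 accessory genes of the membrane arm 4.

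In the membrane arm the gene with the most negative log2 change among those called was Ndufa11, which encodes a small accessory subunit. It measured 11.31, 11.37 and 11.22 on the control arrays and 10.92, 10.80 and 10.75 on those of miR-302, 1.39-fold lower (log2 change −0.48 ± 0.08 SE, adjusted p = 0.0100 by limma). No miR-302 array reached the lowest control array. A second, dimmer row of this gene had a log2 change of −0.35, and with the mean of both rows the call was lost (adjusted p = 0.0618). Ndufc2, another accessory subunit of this arm, measured 12.29, 12.23 and 12.19 on the control arrays and 11.99, 11.84 and 11.81 on those of miR-302. It fell by 0.36 on the log2 scale (limma, adjusted p = 0.0248). Ndufa13, also known as Grim19 from its description as a cell death gene, fell by 0.31 (adjusted p = 0.0481), and Ndufa3 by 0.30 (adjusted p = 0.0451), both close to the threshold. Ndufa6, of the matrix arm, had a log2 change of −0.51 that did not pass the test (limma, adjusted p = 0.106). Its values were 9.66, 9.91 and 9.77 in control cells, and 9.68, 9.01 and 9.11 with miR-302. Here miR-302 replicate 1 lay within the control range while the other miR-302 arrays lay below it. The accessory gene Ndufa12 had the most positive value in this complex, 0.23, with a 95% interval of −0.003 to 0.46.

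Complex II, succinate dehydrogenase, is both an enzyme of the citric acid cycle and an entry point for electrons. Its 4 genes did not move 1 way. Sdhb, the iron-sulfur subunit, measured 9.71, 9.81 and 9.64 on the control arrays and 9.24, 9.27 and 9.28 on those of miR-302. All miR-302 values were below all control values, and the gene was 1.37-fold lower (log2 change −0.46 ± 0.07 SE, adjusted p = 0.00847 by limma). Sdhc, a membrane anchor that helps bind heme and ubiquinone, measured 10.05, 9.94 and 9.91 on the control arrays and 9.75, 9.42 and 9.46 on those of miR-302. It fell by 0.42 on the log2 scale (limma, adjusted p = 0.0385), with miR-302 replicate 1 nearest to the control arrays. Sdhd, the other membrane anchor, measured 9.78, 9.89 and 9.85 on the control arrays and 10.19, 10.12 and 10.26 on those of miR-302. This gene was higher on every miR-302 array than on any control array, by 0.35 ± 0.07 (SE) on the log2 scale (limma, adjusted p = 0.0213). Sdha, the flavin-containing catalytic subunit, measured 11.21, 11.32 and 11.32 on the control arrays and 11.08, 11.03 and 11.02 on those of miR-302. The groups did not overlap, but its log2 change of −0.24 did not pass the test (adjusted p = 0.0600). It passed with an intensity trend and robust prior (adjusted p = 0.00736).

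Of the 4 assembly factors of complex II, 2 were called higher and none lower. Sdhaf1, which helps mature the iron-sulfur subunit, measured 8.29, 8.30 and 8.31 on the control arrays and 8.86, 8.69 and 8.73 on those of miR-302, 1.38-fold higher (log2 change 0.46 ± 0.07 SE, adjusted p = 0.00843 by limma). A second, dimmer row of Sdhaf1 had a log2 change of 0.04, so the rows of this gene disagree. With the mean of both rows the log2 change was 0.25 (adjusted p = 0.0412 by limma). Sdhaf2, needed to attach flavin to Sdha, measured 8.47, 8.53 and 8.52 on the control arrays and 8.76, 8.85 and 8.82 on those of miR-302. It rose by 0.30 on the log2 scale (limma, adjusted p = 0.0246). The log2 changes of Sdhaf3 and Sdhaf4 were −0.08 and 0.07, and neither was called. Of the 8 complex I assembly factors Ndufaf1 to Ndufaf8, 1 was called lower and none higher. That gene, Ndufaf3, measured 9.56, 9.62 and 9.55 on the control arrays and 9.29, 9.28 and 9.20 on those of miR-302 (log2 change −0.32, adjusted p = 0.0218 by limma). The other 7 had log2 changes from −0.26 for Ndufaf7 to 0.15 for Ndufaf2.

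**Figure D3:**
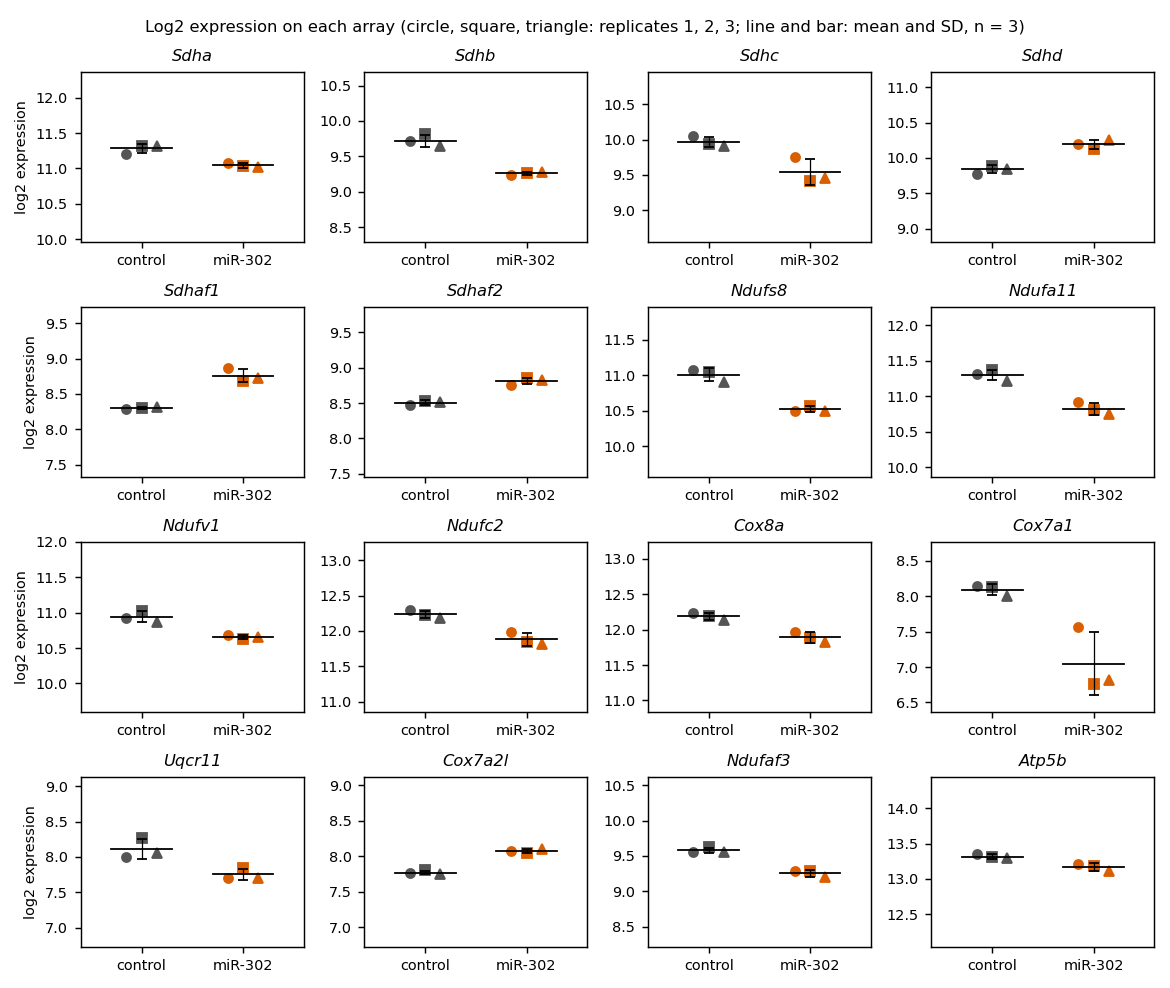
Log2 expression of selected genes on each array, with replicates 1, 2 and 3 as circle, square and triangle and the mean and SD of 3 arrays as line and bar. All panels span the same height on the log2 scale, so distances can be compared between them. Sdhb and Sdhc are lower and Sdhd, Sdhaf1 and Sdhaf2 higher with miR-302, and the miR-302 replicate 1 value of Cox7a1 (7.56) lies between the control arrays and the other miR-302 arrays (6.76 and 6.82).

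Complex III passes electrons from ubiquinol to cytochrome c. Of 7 genes 1 was called lower, and none without miR-302 replicate 1 or any 1 of the other arrays. Uqcr11, a small subunit, measured 8.0, 8.27 and 8.06 on the control arrays and 7.71, 7.84 and 7.71 on those of miR-302. Its log2 change of −0.36 passed the test narrowly (limma, adjusted p = 0.0454). Uqcrfs1, the Rieske iron-sulfur protein, was 7.51 ± 0.06 (SD, n = 3) and 7.41 ± 0.04. Its log2 change was −0.10, with a 95% interval of −0.27 to 0.07. The core protein gene Uqcrc1 averaged 11.78 ± 0.10 in control cells and 11.73 ± 0.05 with miR-302 (log2 change −0.05, 95% interval −0.24 to 0.13). For both genes the groups overlapped. Uqcrc2, the other core protein gene, had a log2 change of −0.13 that did not pass the test (adjusted p = 0.238), with all miR-302 arrays below the control arrays.

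Complex IV, cytochrome c oxidase, reduces oxygen, and several of its nuclear subunits exist as a general isoform and as isoforms restricted to muscle, testis or lung. Of 17 genes, 2 were called lower, none higher and 15 not called. The largest log2 change of all 93 genes was that of Cox7a1, the isoform known from heart and skeletal muscle. It measured 8.14, 8.13 and 8.0 on the control arrays and 7.56, 6.76 and 6.82 on those of miR-302. This is a fall of 1.04 on the log2 scale, or 2.06-fold (limma, SE 0.21, adjusted p = 0.0186), with no overlap of the groups and with miR-302 replicate 1 between the control arrays and the other miR-302 arrays. It was the only 1 of the 93 genes whose log2 change reached 1 in either direction. The call held without miR-302 replicate 1 and was lost without any 1 of the other arrays. Of 10 heart and skeletal muscle markers, 4 were called higher and 1 lower, with a mean level of 5.62 to 5.67 on the control arrays and 5.86 to 6.06 on the miR-302 arrays, and their part in this result was not tested. The general isoform Cox7a2 measured 10.49, 10.49 and 10.47 on the control arrays and 10.51, 10.49 and 10.51 on those of miR-302, a log2 change of 0.02 with a 95% interval of −0.13 to 0.17. Cox7a2l, also called Scaf1, which joins complexes III and IV into supercomplexes, measured 7.76, 7.80 and 7.75 on the control arrays and 8.07, 8.05 and 8.10 on those of miR-302. It rose by 0.30 on the log2 scale (limma, adjusted p = 0.0215). The 3 genes of this family thus differed in their calls, with 1 lower, 1 higher and 1 not called.

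Other isoform pairs of complex IV gave smaller values. Cox8a, the general form of subunit VIII, measured 12.24, 12.19 and 12.14 on the control arrays and 11.97, 11.88 and 11.82 on those of miR-302. It fell by 0.30 on the log2 scale (limma, adjusted p = 0.0358). The restricted forms Cox8b and Cox8c had low means of 4.90 and 3.61 in control cells and log2 changes of −0.24 and 0.06, neither called. No measure of background was used, so detection at such levels was not assessed. Cox4i1, the general form of subunit IV, measured 11.61, 11.45 and 11.41 on the control arrays and 11.05, 11.29 and 11.25 on those of miR-302. All miR-302 values were below the control values, yet the log2 change of −0.29 did not pass the test (adjusted p = 0.0875). It passed with an intensity trend and robust prior (adjusted p = 0.0259) and when only better-expressed genes were tested (0.0393). The hypoxia-regulated alternative isoform of this subunit, Cox4i2, had a log2 change of 0.10 with overlapping groups. Cox6b1 had a log2 change of −0.26 (adjusted p = 0.101, and 0.0380 and 0.0445 under the same alternatives). Cox6b2, known from testis, had one of −0.37 (adjusted p = 0.202), with values of 7.76, 7.06 and 7.25 on the miR-302 arrays against 7.70 to 7.75 on the control arrays. Cox6a1 had a log2 change of −0.14, as did the muscle form Cox6a2, and neither was called. Cox7b had a log2 change of 0.07 and Cox7b2 one of 0.45, neither called, and the control mean of Cox7b2 was low at 2.79. Cox5a had a log2 change of −0.10 (95% interval −0.31 to 0.11). Ndufa4, a subunit of complex IV despite its name, was 10.88 ± 0.07 and 10.92 ± 0.06 (SD, n = 3). Its relative Ndufa4l2, a known hypoxia target, had a low control mean of 4.69 and a log2 change of 0.43 (adjusted p = 0.253).

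In complex V, the ATP synthase, none of 17 genes was called by limma, and 3 had an unadjusted p under 0.05. This depended on the setting: 1 was called lower without miR-302 replicate 1, 3 lower with an intensity trend and robust prior, 2 lower with array weights, and 1 lower and 1 higher when only better-expressed genes were tested. In the same order, 13.1%, 11.6%, 13.5% and 22.4% of all genes then tested were called lower, and 16.4% higher in the last setting. The 3 with the trend were Atp5g2 (adjusted p = 0.00828), Atp5b (0.0180) and Atp5a1 (0.0448). The log2 changes of all 17 in the rows used lay between −0.23 and 0.18, the latter for Atp5j of the peripheral stalk. Atp5b, the catalytic beta subunit, measured 13.35, 13.31 and 13.29 on the control arrays and 13.21, 13.18 and 13.11 on those of miR-302. All miR-302 values were lower, by 0.15 on the log2 scale with a 95% interval of −0.31 to 0.01 (adjusted p = 0.188). Atp5a1, the alpha subunit, had a log2 change of −0.15 (adjusted p = 0.218). The 3 genes for the c ring encode the same mature protein. Atp5g2 measured 12.25, 12.20 and 12.14 on the control arrays and 12.03, 11.96 and 11.98 on those of miR-302 (log2 change −0.21, adjusted p = 0.0887), and its second row gave −0.22. Atp5g3 had a log2 change of 0.11, with every miR-302 array above every control array, and Atp5g1 one of 0.02. For Atp5h and Atp5e the second rows had the opposite sign (0.16 and 0.19, against −0.23 and −0.13 in the rows used), so no direction is given for them. Atpif1, the inhibitor of this enzyme and no member by its symbol, had a log2 change of −0.28 (adjusted p = 0.0546).

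Promoters of respiratory chain genes are known for sites of NRF1, of ETS factors such as GABP, and of YY1. RefSeq (GRCm38.p6) gave a promoter, from 250 bases before to 50 after the start, for 76 of the 93 genes. GCGCATG, a core of the NRF1 site, was found on either strand in 15 of the 76 (19.7%), against 5.57% of 16918 tested genes with a promoter and 4.41% of 27025 genes in all. CGGAAG, the core of an ETS site, was found in 37 (48.7%, against 23.3% and 18.8%). AAGATGG, part of the YY1 site, was found in 11 (14.5%, against 7.32% and 7.28%), AAGGTCA, the ERR core, in 6 (7.89%, against 4.66% and 5.38%), and TATAAA in 9 (11.8%, against 14.3% and 15.7%). Each was counted on both strands, and no motif contains another. Of the 15 genes with the NRF1 core, 3 were called lower and 12 were not called. Of the 37 with CGGAAG, 5 were called lower, 3 higher and 29 not called. Among all genes tested 9.25% were called lower and 7.18% higher, and among better-expressed genes 15.9% and 10.9%. Whether calls go with a motif was not tested. The 70 bases just before the start are shown for 5 genes, with NRF1 and ETS matches in capitals, to set called genes beside others with the same letters. Ndufa11 (chr17:56717692-56717761, plus strand), called lower, has the NRF1 core on both strands, overlapping, as has Atp5g2 (chr15:102671048-102671117, minus strand), which was not called. Uqcr11 (chr10:80406822-80406891, minus strand), called lower, and Sdhd (chr9:50603850-50603919, minus strand), called higher, each have an ETS core, on opposite strands. Uqcr11 also has an NRF1 core that runs across the start, so only its first bases are in the stretch shown and they are not in capitals. Cox7a1 (chr7:30184101-30184170, plus strand), called lower, has none of the 5 motifs in its window.
Ndufa11: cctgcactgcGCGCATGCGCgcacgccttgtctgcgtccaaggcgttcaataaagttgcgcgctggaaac
Atp5g2: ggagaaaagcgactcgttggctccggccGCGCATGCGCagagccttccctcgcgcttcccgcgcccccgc
Uqcr11: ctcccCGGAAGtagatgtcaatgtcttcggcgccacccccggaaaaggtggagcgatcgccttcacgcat
Sdhd: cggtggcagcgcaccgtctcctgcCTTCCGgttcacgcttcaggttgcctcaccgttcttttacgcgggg
Cox7a1: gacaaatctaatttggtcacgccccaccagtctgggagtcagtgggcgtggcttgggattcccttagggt
A match is a run of letters and not a measured site. In RefSeq, Timm8b, a chaperone gene of mitochondrial import, is next to Sdhd, and its span overlaps the stretch shown for Sdhd. Timm8b had a log2 change of −0.02 (95% interval −0.20 to 0.17).

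Other genes that serve the chain were counted in the same fit. Of 36 other assembly factors, 3 were called lower and 2 higher, with a median log2 change of −0.02. Higd2a, which takes part in supercomplex assembly, measured 10.62, 10.47 and 10.46 on the control arrays and 9.82, 9.49 and 9.53 on those of miR-302, 1.87-fold lower (limma, adjusted p = 0.00349). Ecsit, a complex I assembly factor that also acts in innate immune signalling, fell by 0.48, and Atpaf1, which helps build the ATP synthase head, by 0.43 on the log2 scale. The higher genes were Coa5 (0.38), of complex IV assembly, and Timmdc1 (0.35), of complex I assembly. Of 18 genes for electron carriers and their synthesis, 4 were called lower and none higher (median −0.11). Coq10a, which binds ubiquinone, fell by 0.59, the ubiquinone synthesis gene Coq3 by 0.53, and Etfb, of the flavoprotein that carries electrons from fatty acid oxidation, by 0.45 on the log2 scale. Cycs, cytochrome c itself, had a log2 change of 0.10 that did not pass the test (adjusted p = 0.391).

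Of 27 genes of the citric acid cycle and pyruvate oxidation, 6 were called lower, or 22.2%, and none higher (median −0.16). Ogdhl, a relative of the oxoglutarate dehydrogenase subunit, fell by 0.41. Pdk4, a kinase that switches pyruvate dehydrogenase off, fell by 0.74, and Pdp1, a phosphatase that switches it on, fell by 0.59. Dlat, the acetyltransferase of that complex, fell by 0.49 on the log2 scale. The called genes of this list thus include opposing regulators of 1 enzyme. Of 71 mitochondrial ribosomal protein genes 5 were called lower and 7 higher (median −0.03), with log2 changes of 0.52 for Mrpl18, 0.51 for Mrps21 and 0.35 for Mrps17, and of −0.47 for Mrpl14, −0.33 for Mrps27 and −0.29 for Mrpl13. Of 23 genes of mitochondrial import 2 were called lower and 1 higher (median −0.02), with log2 changes of −0.49 for Tomm34, −0.32 for Timm17b and 0.43 for Timm9. Of 64 cytosolic ribosomal protein genes, also short and abundant transcripts, 4 were called lower and 1 higher, and their median was 0.005. The lower genes include the copies Rpl10l (log2 change −1.90), Rpl39l (−0.59) and Rps4l (−0.39), and the higher gene is Rpl27a (0.36).

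**Figure D4:**
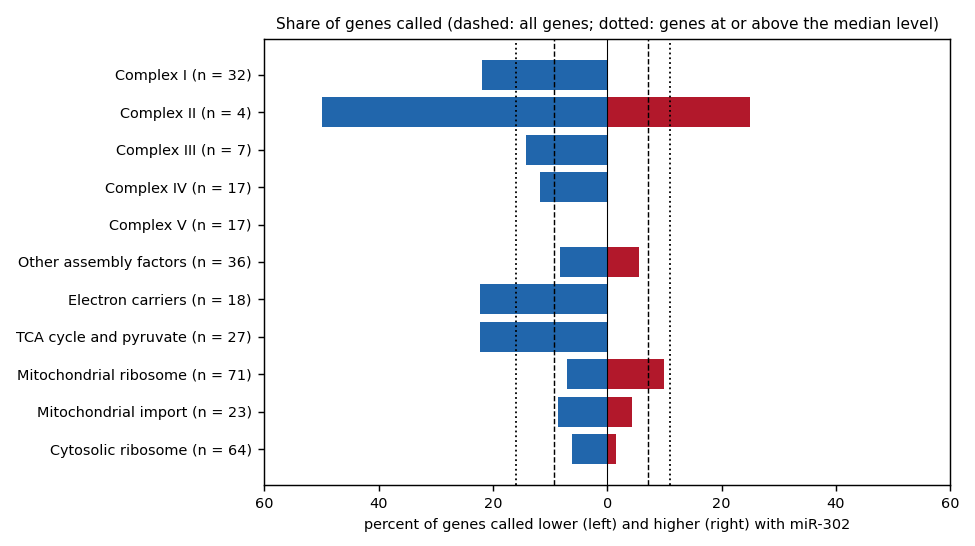
Percent of genes called lower (left, blue) and higher (right, red) with miR-302 in each complex and related list, with the number of genes. Dashed lines mark all genes (9.25% lower, 7.18% higher) and dotted lines better-expressed genes (15.9% and 10.9%). Complex I, electron carriers and the citric acid cycle list exceed the dotted line on the lower side at 21.9%, 22.2% and 22.2%, complex II has 4 genes only, and complex V has no bar.

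Of 21 regulators of mitochondrial gene expression, 2 were called higher, 1 lower and 18 not called. Ppargc1b, which encodes a coactivator of mitochondrial genes, measured 6.84, 6.75 and 6.74 on the control arrays and 6.29, 6.26 and 6.13 on those of miR-302 (log2 change −0.55 ± 0.08 SE, adjusted p = 0.00545 by limma). Yy1 rose by 0.28. Lin28a, an RNA-binding protein reported to bind transcripts of this chain, rose by 1.25 on the log2 scale. Nrf1 had a log2 change of −0.16 (adjusted p = 0.158), Gabpa one of −0.09 and Tfam, the factor of mitochondrial DNA transcription, one of 0.08, and none of these was called. Ppargc1a had a low mean of 3.41 in control cells and was not called (log2 change −0.10). Of 13 genes for uncoupling, nucleotide exchange and peroxide removal, 3 were called higher and 2 lower. Slc25a4, the ADP and ATP exchanger of the inner membrane, rose by 0.55, the mitochondrial thioredoxin gene Txn2 by 0.37 and the lipid peroxidase gene Gpx4 by 0.35 on the log2 scale. Sod2, the superoxide dismutase of the matrix, fell by 0.50. Cat, the peroxisomal catalase, was 1.63-fold lower (limma, adjusted p = 0.00144).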

How the data were processed

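RMA was the authors' processing step, per the submitters' processing notes. Its output is used here as deposited, as log2 expression, because RMA returns base 2 and no base is stated. Neither a software version nor a genome build is stated in what was used here. RMA gives all arrays a like distribution, so a shift common to all genes cannot be seen. Of 33649 rows, 23521 name a single gene in the platform annotation, and the row with the highest mean stood for its gene (22180 genes). Rows naming several genes were left out and not tested, among them 10 that name a gene of the symbol rule. In those naming Ndufb2, Ndufb4, Ndufs6 or Uqcr10, every miR-302 array was below every control array. The groups overlapped in those naming Ndufs1, Ndufs5, Uqcrb or Cox6c. The Ndufb4 row measured 8.75, 8.60 and 8.55 on the control arrays and 8.09, 7.98 and 7.95 on those of miR-302. Group differences were estimated for every gene by limma (version 3.58.1, under R 4.3.3) with lmFit and eBayes, two-sided. P-values were adjusted by Benjamini-Hochberg over all genes, and a gene is called at an adjusted p under 0.05. Intervals are 95% limma intervals. Adjusted p-values are from this fit unless another setting is named. Precision is limited by 3 arrays a group. The code was tested on simulated data with changes put into some genes. It called 1 of 76 genes changed 1.25-fold, 23 of 57 changed 1.5-fold and 46 of 67 changed 2-fold. A gene that was not called may thus still differ between groups. Complexes follow known roles, so Ndufa4 is counted with complex IV. The members and lists were chosen with earlier results of these data known.

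Named were up to 4 called genes a direction and complex by size of change, core subunits (Ndufs1, Ndufv1, Sdha, Sdhb, Uqcrfs1, Uqcrc1, Cox4i1, Cox5a, Atp5a1 and Atp5b), alternative isoforms, called assembly factors, and up to 3 called genes a direction of each related list by p. Others were chosen after their values were seen (Ndufa3, Ndufa6, Ndufa12, Ndufs3, Ndufs4, Ndufs7, Ndufv2, Uqcrc2, Ndufaf2, Ndufaf7, Sdhaf3, Sdhaf4, Atp5e, Atp5h, Atp5j, Atpif1, Cycs, Timm8b, Nrf1, Gabpa, Tfam, Ppargc1a and Pdk4), as were the motifs and the promoters shown. Plots used matplotlib 3.10.9 (Python 3.11.15).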

Additional observations from a re-analysis of the deposited data

How the results depend on the processing

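The median log2 change of the 93 genes stayed negative in all settings tried: as a range over fits that left out 1 array it was −0.12 to −0.09, and for complexes I to V −0.20 to −0.16, −0.35 to −0.30, −0.10 to −0.00333, −0.14 to −0.05 and −0.07 to −0.005. Counts moved more. The 4 higher and 13 lower genes became 1 and 3 at the lowest and 4 and 21 at the highest when 1 array was left out. With the replicate number as a block, 1 was higher and 5 lower. Over all genes, same-numbered arrays of the groups showed little common deviation (correlations 0.02, 0.02 and 0.01, against −0.04 to 0.02 for other pairs). An effect shared by such arrays in some genes only could be missed in this way, and the labels do not state a pairing. The count of lower genes was 23 when only better-expressed genes were tested, 24 with an intensity trend and robust prior, and 25 with array weights. In the same order, 22.4%, 11.6% and 13.5% of all genes then tested were called lower. With the block this share was 5.99%. Among the 77 subunit genes alone 1 was higher. Of the 17 calls, 16 were kept when the rows of each gene were averaged and 17 with each array centred on its median. No call changed sign. The causes were not tested. Array signal over background was not used here, so detection of genes at low levels was not assessed.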
